A study of Mus musculus with 6 samples.

Results

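The genes described here encode the switch that carries the cAMP signal to transcription in pigment cells: the salt-inducible kinases Sik1, Sik2 and Sik3, the CREB-regulated transcription coactivators Crtc1, Crtc2 and Crtc3, and the cAMP-responsive transcription factors Creb1, Crem and Atf1. They were taken by gene symbol from the deposited read count table, and all 9 were found among its 35275 gene IDs and all 9 passed the filter on low counts that left 13602 tested genes. RNA was sequenced from the mouse line Melb-a, immortal melanoblasts of C57BL/6J genotype whose labels give melanocyte as the cell type and skin as the tissue. At partial confluence every culture was moved from growth medium to DMEM with 10% serum, 2 nM of the melanocortin NDP-alpha MSH and 200 nM of the phorbol ester phorbol-myristate-acetate. For 48 hours this medium also held the vehicle DMSO (3 samples) or 10 µM iBRD9 (3 samples), a compound that binds the bromodomain of the chromatin remodeling subunit BRD9. Both groups therefore received the hormone analog, and no group without it was measured. The line is a single cell line, and the series text calls the samples independent without saying how the cultures were separated, so p-values measure the spread between these samples.

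Melanocortin binding to the receptor Mc1r raises cAMP, which activates protein kinase A. In resting cells the SIK kinases phosphorylate the CRTC proteins and hold them in the cytoplasm on 14-3-3 proteins. Protein kinase A inhibits the SIK kinases, calcineurin can remove the phosphates, and the freed CRTC proteins enter the nucleus and join CREB on cAMP response elements, among them one in the melanocyte promoter of Mitf, the master regulator of pigment genes. This control acts on protein phosphorylation and location, which read counts do not measure.

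The counts put the cells in the melanocyte lineage: all 9 of the melanocyte markers checked were tested, and their summed level ran from 16086 to 18261 CPM (counts scaled to a common library size) with DMSO and from 15286 to 16824 CPM with iBRD9. Dct and Tyrp1 make up most of that sum, and the single markers moved apart: 1 was called higher (Dct) and 5 lower, among them Tyr (-2.61) and Sox10 (-0.92 on the log2 scale), with a median of -0.62. The 4 keratinocyte markers summed to 3.50 to 4.12 CPM with DMSO and to 3.56 to 4.32 CPM with iBRD9, almost all of it from Krt10. Krt1 and Krt5 had no count in any library, and the same held for the leukocyte marker Ptprc. The summed level of the 5 fibroblast markers ran from 75.2 to 99.7 CPM with DMSO and from 130.8 to 144.6 CPM with iBRD9. Dcn carried that difference (51.2 to 120.5 CPM), Col1a1 rose from 0.679 to 3.52 CPM, Col1a2 fell from 29.6 to 7.64 CPM, and Pdgfra and Lum did not pass. The 4 Schwann cell markers summed to 174 to 219 CPM with DMSO and to 27.7 to 32.6 CPM with iBRD9. The 3 endothelial markers summed to 1.09 to 1.48 CPM with DMSO and to 3.96 to 5.78 CPM with iBRD9. The 3 immune markers summed to 5.69 to 7.49 CPM with DMSO and to 3.84 to 4.61 CPM with iBRD9. Each of these sets had 1 tested gene, Kdr (called higher) and Cd68 (called lower). The part of these marker shifts in the results below was not tested, and in bulk RNA fewer cells of a type and less RNA per cell cannot be told apart. Library totals ran from 22846391 to 29680952 counts. One library, DMSO replicate 1, was shifted toward the iBRD9 group. Where iBRD9 differed by 2-fold or more from DMSO replicates 2 and 3, its log2 level had covered a median fraction of 0.241 of the distance in the 513 genes that were lower with iBRD9 and of 0.375 in the 620 that were higher. Of all tested genes 60.7% were called different between the treatments at an adjusted p under 0.05 (edgeR's quasi-likelihood test with Benjamini-Hochberg adjustment over all tested genes), 29.8% higher and 30.9% lower with iBRD9. Scaling by library size alone moved the median log2 fold change of all genes by 0.106, and 59.6% of its calls were higher with iBRD9, against 49.1% with the TMM scaling used here.

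Of the 9 members, 2 rose with iBRD9 (Sik2 and Crtc1), 4 fell (Sik3, Crtc3, Creb1 and Crtc2) and 3 did not pass the test (Sik1, Crem and Atf1). The 6 called members are 66.7% of the list, near the 60.7% over all tested genes. The groups did not overlap in 6 members, and in 68.0% of all tested genes. The members' changes were small for this comparison: their median absolute log2 fold change was 0.23, against 0.39 over all tested genes, and no member changed by 2-fold. Within the SIK family Sik2 rose while Sik3 fell, and within the CRTC family Crtc1 rose while Crtc3 and Crtc2 fell.

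**Figure D1:**
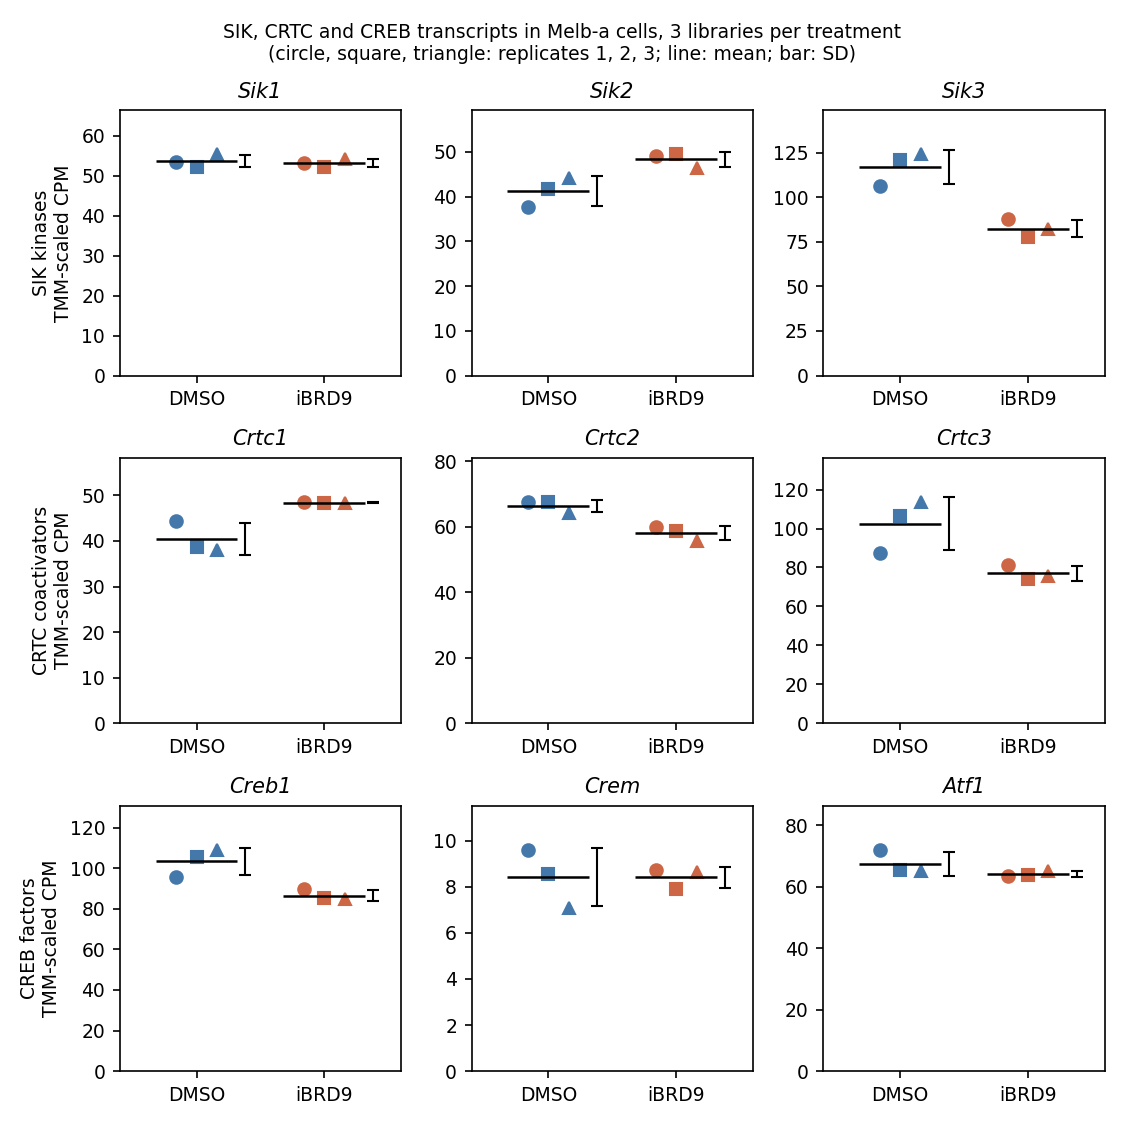
Level of each of the 9 transcripts in every library, as TMM-scaled CPM on axes that start at 0, with DMSO in blue and iBRD9 in orange, the mean as a line and the SD as a bar (n = 3). Sik3, Crtc3, Creb1 and Crtc2 were lower and Sik2 and Crtc1 higher in all 3 iBRD9 libraries than in any DMSO library, while the groups of Sik1, Crem and Atf1 overlapped.

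Sik3 fell the most of the members. Its protein is the largest of the SIK kinases and, like the others, is switched on by the kinase LKB1. Sik3 (ENSMUSG00000034135) stood at 106, 121 and 124 CPM in DMSO replicates 1, 2 and 3 and at 87.7, 77.7 and 82.2 CPM in iBRD9 replicates 1, 2 and 3. Every iBRD9 library was below every DMSO library, and DMSO replicate 1 was the lowest of its group. The mean went from 117 ± 9.65 to 82.6 ± 5.00 CPM (SD, n = 3), which is a log2 fold change of -0.50 (SE 0.078, edgeR adjusted p = 0.000774). Changes larger than that of Sik3 in either direction were found in 40.0% of all tested genes. Without DMSO replicate 1 the log2 fold change was -0.58, and the call held in all 14 alternative analyses, with adjusted p from 2.56e-10 to 0.00641.

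Sik2, the family member best known for holding back Mitf transcription in pigment cells, went the other way. Sik2 (ENSMUSG00000037112) stood at 37.7, 41.8 and 44.2 CPM with DMSO and at 49.0, 49.5 and 46.4 CPM with iBRD9. The iBRD9 libraries were all higher, with a gap of a few CPM between the highest DMSO library and the lowest iBRD9 library. The mean rose from 41.2 ± 3.29 to 48.3 ± 1.66 CPM (SD, n = 3), which is a log2 fold change of 0.23 (SE 0.075, edgeR adjusted p = 0.0274). DMSO replicate 1 was the lowest library here, farther from the iBRD9 group than the other DMSO libraries, and without it the log2 fold change was 0.16 (edgeR adjusted p = 0.0121). The call of Sik2 was lost without DMSO replicate 2 (edgeR adjusted p = 0.0745) and without iBRD9 replicate 1 (0.0905), replicate 2 (0.101) or replicate 3 (0.0528), where the log2 fold change stayed between 0.21 and 0.25.

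Sik1 is the member whose own transcription is induced by cAMP through CREB, which makes it a feedback brake on the pathway. Sik1 (ENSMUSG00000024042) stood at 53.5, 52.2 and 55.3 CPM with DMSO and at 53.1, 52.1 and 54.3 CPM with iBRD9. The ranges of the groups overlapped almost whole, and the spread within a group was small, with a coefficient of variation of 2.94% and 2.06%. The log2 fold change was -0.015 (SE 0.058, edgeR adjusted p = 0.838), and 0.091 with library size alone. The limma-voom 95% interval of the difference ran from -0.15 to 0.12 on the log2 scale.

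The make-up of the SIK family shifted with these changes. Sik3 held 53.8%, 56.3% and 55.5% of the family's counts in the DMSO libraries and 46.2%, 43.4% and 45.0% in the iBRD9 libraries. Sik2 held 19.1%, 19.4% and 19.7% with DMSO and 25.8%, 27.6% and 25.4% with iBRD9. A share within a library does not depend on how libraries are scaled, and in both genes the groups were apart. The share of Sik3 differed by -10.4 percentage points and that of Sik2 by 6.84, and the share of Sik1 went from 25.4% ± 1.52 to 28.9% ± 0.858 (SD, n = 3). Each of these 3 differences had an exact two-sided permutation p of 0.1, the smallest that 3 against 3 libraries allow. Their adjusted p was 0.18 over the 9 shares computed. Shares within a family are parts of the same sum, so a share also moves when another member moves, and these differences are not separate. The level of Sik1 itself was not called different (log2 fold change -0.015). The summed level of the 3 kinases was 212 ± 13.5 CPM with DMSO and 184 ± 5.38 CPM with iBRD9, a ratio of 0.868 (exact permutation p = 0.1). With library size alone its range was 195.5 to 212 CPM with DMSO and 185.6 to 197 CPM with iBRD9, so the groups overlapped.

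**Figure D2:**
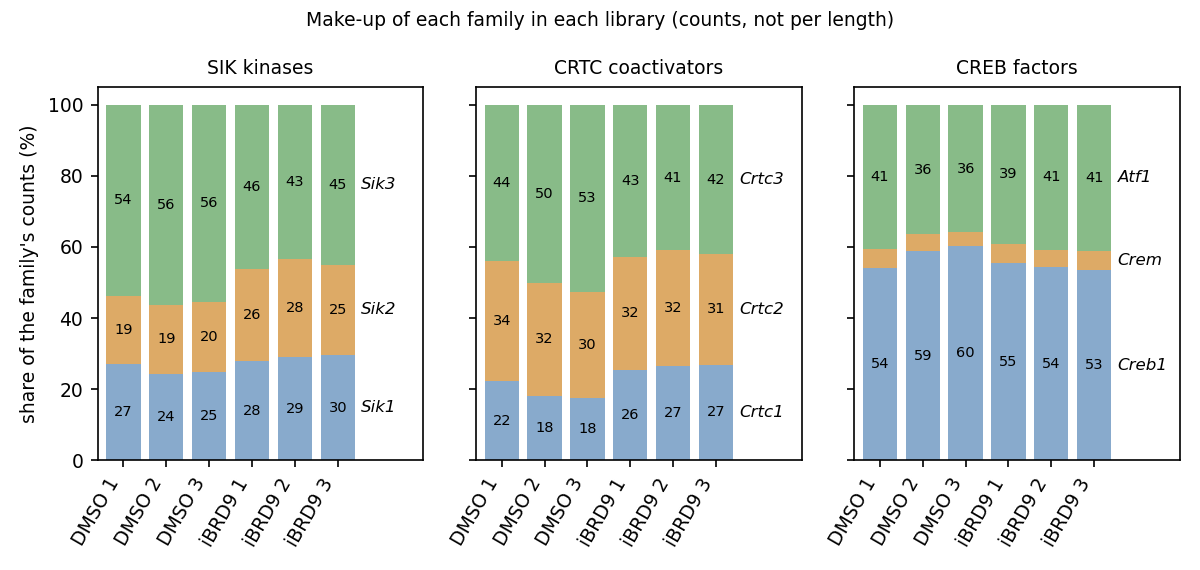
Share of each member in the summed counts of its family, in percent, for each of the 6 libraries; a share is of counts and not per length. The Sik3 share was 53.8% to 56.3% with DMSO and 43.4% to 46.2% with iBRD9, and Crtc1 went from 17.6% to 22.3% up to 25.5% to 26.9%.

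The CRTC coactivators also parted. CRTC proteins bind the DNA-binding domain of CREB and add transcriptional activity to it, and CRTC3 has been tied to pigmentation. Crtc3 (ENSMUSG00000030527) stood at 87.6, 107 and 114 CPM with DMSO and at 81.5, 74.1 and 75.6 CPM with iBRD9. The groups were apart, but DMSO replicate 1 lay nearer to the iBRD9 libraries than to the other DMSO libraries, at a fraction of 0.640 of the log2 distance. The mean fell from 103 ± 13.5 to 77.1 ± 3.90 CPM (SD, n = 3), which is a log2 fold change of -0.41 (SE 0.097, edgeR adjusted p = 0.00631). Without DMSO replicate 1 it was -0.52 (edgeR adjusted p = 1.85e-09), and the call held in all 14 alternatives.

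Crtc1 rose. Crtc1 (ENSMUSG00000003575), the family member best studied in neurons, stood at 44.4, 38.7 and 38.1 CPM with DMSO and at 48.5, 48.2 and 48.4 CPM with iBRD9. The iBRD9 libraries were almost equal, with an SD of 0.145 CPM, and DMSO replicate 1 again lay between the other DMSO libraries and the iBRD9 group. The log2 fold change was 0.26 (SE 0.074, edgeR adjusted p = 0.0147), and 0.33 without DMSO replicate 1 (edgeR adjusted p = 9.86e-06). The call of Crtc1 was lost without DMSO replicate 2 (edgeR adjusted p = 0.0689) or replicate 3 (0.0560) and without iBRD9 replicate 2 (0.0507) or replicate 3 (0.0524).

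Crtc2, a coactivator best known from the control of glucose production in liver, fell by less. Crtc2 (ENSMUSG00000027936) stood at 67.5, 67.5 and 64.2 CPM with DMSO and at 60.04, 58.7 and 55.6 CPM with iBRD9, with no overlap. The log2 fold change was -0.19 (SE 0.060, edgeR adjusted p = 0.0232). The call of Crtc2 was lost with library size alone (-0.086, edgeR adjusted p = 0.259) and without DMSO replicate 2 (0.0763), iBRD9 replicate 2 (0.0690) or iBRD9 replicate 3 (0.102).

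Within the CRTC family, Crtc3 held 48.9% ± 4.48 of the counts with DMSO and 42.0% ± 0.977 with iBRD9, and Crtc1 held 19.4% ± 2.52 and 26.4% ± 0.742 (SD, n = 3). The groups did not overlap in either share, and each had an exact permutation p of 0.1 (0.18 adjusted over the 9 shares). The Crtc2 share was 31.8% ± 2.04 and 31.7% ± 0.724, with overlapping groups. The summed CRTC level went from 209 ± 8.75 to 184 ± 5.65 CPM, a ratio of 0.877 (exact permutation p = 0.1), and from 198 to 205 CPM down to 186 to 197 CPM with library size alone.

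Among the transcription factors Creb1 fell, while Crem and Atf1 did not pass. Creb1 encodes the factor that protein kinase A phosphorylates in its kinase-inducible domain and that CRTC proteins join. Creb1 (ENSMUSG00000025958) stood at 95.9, 105 and 109 CPM with DMSO and at 89.6, 85.1 and 84.7 CPM with iBRD9. The groups were apart, with DMSO replicate 1 again the lowest of its group. The mean went from 103 ± 6.76 to 86.5 ± 2.73 CPM (SD, n = 3), which is a log2 fold change of -0.26 (SE 0.066, edgeR adjusted p = 0.00940). Without DMSO replicate 1 it was -0.32, and the call held in all 14 alternatives, with an adjusted p of at most 0.0497.

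Atf1, the closest relative of Creb1, binds the same elements. Atf1 (ENSMUSG00000023027) stood at 72.0, 65.3 and 65.0 CPM with DMSO and at 63.4, 63.9 and 65.1 CPM with iBRD9. DMSO replicate 1 was the highest library, and the other 5 lay within a narrow range. The log2 fold change was -0.073 (SE 0.063, edgeR adjusted p = 0.342), and 0.032 with library size alone, with a limma-voom 95% interval from -0.21 to 0.072.

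Crem encodes activators and, from an internal promoter, the cAMP-induced repressor ICER, and the counts per gene do not tell these apart. Crem (ENSMUSG00000063889) was the scarcest member, with 168 to 268 reads per library where the other members had up to 3070. It stood at 9.59, 8.56 and 7.08 CPM with DMSO and at 8.70, 7.88 and 8.65 CPM with iBRD9, and the iBRD9 libraries lay inside the DMSO range. The log2 fold change was 0.0015 (SE 0.13, edgeR adjusted p = 0.992). Its limma-voom 95% interval, from -0.28 to 0.31, was the widest of the 9 members and holds the value seen for Creb1. Its coefficient of variation was 15.01% over the DMSO libraries and 5.46% over the iBRD9 libraries, at like read counts. Without DMSO replicate 3 the value was -0.11, and without DMSO replicate 1 it was 0.096.

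The CREB family as a whole had a summed level of 177, 179 and 181 CPM with DMSO and of 162, 157 and 158 CPM with iBRD9, a ratio of 0.887 (exact permutation p = 0.1). With library size alone the ranges were 170.3 to 176 and 162 to 168 CPM and did not overlap. Shares within the CREB family overlapped between the groups: Creb1 held 57.7% ± 3.22 with DMSO and 54.4% ± 0.984 with iBRD9 (exact permutation p = 0.3, SD with n = 3), and Atf1 held 37.6% ± 2.55 and 40.3% ± 0.995 (exact permutation p = 0.2).

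**Figure D3:**
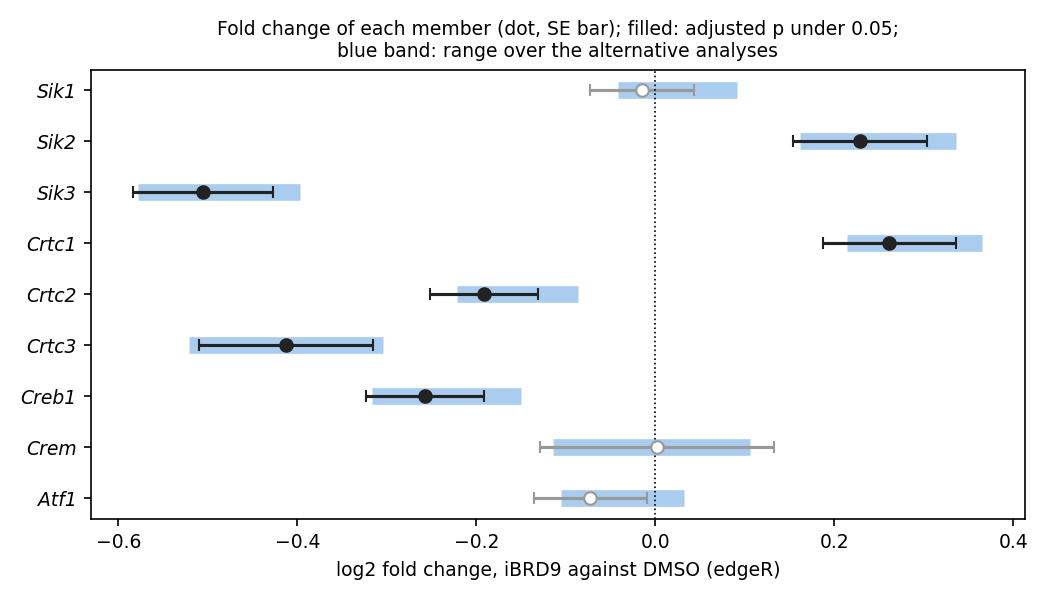
Log2 fold change of each member, iBRD9 against DMSO, from the edgeR fit, with its standard error as a bar, filled where the adjusted p was under 0.05, and the range over 14 alternative analyses as a blue band. The 6 called members keep their sign over the whole band, and the bands of Sik1, Crem and Atf1 cross 0.

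Levels of different genes can be compared only per length. Per kilobase of merged exons in the GENCODE M21 annotation, Atf1 was the most abundant member with DMSO (22.0 ± 1.29 CPM per kilobase, SD, n = 3), followed by Crtc2 (16.2 ± 0.464), Sik3 (12.6 ± 1.04), Sik1 (10.5 ± 0.307), Crtc3 (10.4 ± 1.37), Creb1 (7.52 ± 0.492), Sik2 (4.32 ± 0.345), Crtc1 (3.61 ± 0.310) and Crem (1.43 ± 0.214). Neighbours in this order overlapped between libraries only for Sik1 with Crtc3 and for Sik2 with Crtc1. With iBRD9, Sik1 (10.4 ± 0.213) stood above Sik3 (8.86 ± 0.537), without overlap, while Sik3 had been above Sik1 in the DMSO libraries, also without overlap. That exchange depends on the length used: per kilobase of the longest annotated transcript Sik3 was above Sik1 in both groups, at 18.6 against 11.9 with DMSO and 13.1 against 11.8 with iBRD9. By that length Crtc3 came next after Crtc2 in both groups. Atf1 was the highest and Crem the lowest by either length.

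The genes whose levels over the 6 libraries were most like those of the member with the largest change in each family were, for Sik3, the cholesterol transporter gene Abca1 (Pearson r = 0.998), Eml3 and the interferon receptor gene Ifnar2. For Crtc3 they were Mgrn1, a ubiquitin ligase gene whose loss darkens the coat of mice, Igsf8 and Agtrap, and for Creb1 they included Tmem134 and Msantd4. Those named here were all called lower with iBRD9, with log2 fold changes from -0.63 (Agtrap) to -0.16 (Mgrn1). With 6 libraries in 2 groups such values are common: 1776 of 9901 genes compared had an r above 0.95 with Sik3, so these are a description and no p is given. Sik3, Crtc3 and Creb1 also ran together, with r from 0.971 (Sik3 and Crtc3) to 0.994 (Crtc3 and Creb1) over the 6 libraries, and Crtc1 ran against Crtc3 (r = -0.979).

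The promoter letters of members were searched because CREB and its relatives bind the cAMP response element TGACGTCA and its shorter core TGACG. RefSeq promoters of build GRCm38.p6 were matched by symbol for 6 of the 9 members (Sik2, Sik3, Crtc1, Crtc3, Creb1 and Atf1), and the 250 bases before the start were read on both strands. No full element was found in the 6 (0 matches), against 1.55% of 32851 promoters in the table. The core, which every full element also holds, was found in Sik3 and Atf1, against 17.8% of all promoters. Sik3 had 3 copies, all on the strand of the gene, and Atf1 had 1. The stretches that hold them are shown 5′ to 3′ on the strand of the gene, which is the plus strand for both, with the cores in capitals, at chr9:46012667-46012787 for Sik3 and chr15:100227749-100227793 for Atf1.
Sik3: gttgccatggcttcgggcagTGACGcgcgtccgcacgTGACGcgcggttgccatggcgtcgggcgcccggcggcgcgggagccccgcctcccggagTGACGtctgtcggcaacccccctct
Atf1: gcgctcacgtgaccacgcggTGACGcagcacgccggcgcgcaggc
Both stretches also hold 1 E-box CACGTG, the core letters bound by Mitf and many other factors, which 6.02% of all promoters held, and in Sik3 it overlaps the middle core. The M-box TCATGTG, a longer motif bound by Mitf, was in none of the 6 (0 matches, against 3.25% of all promoters). Other longer forms of the E-box were not searched. Sik3 fell and Atf1 did not pass, so genes with the core did not share a call, and a match of letters is a description of the window only.

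Upstream of the switch, genes of cAMP production and protein kinase A went both ways. Against 60.7% of all tested genes, the share called in either direction was 76.9% for cAMP production, 77.8% for protein kinase A and 72.7% for the phosphodiesterases. It was 78.6% for LKB1, its partners and AMPK-related kinases, 42.9% for 14-3-3 proteins and 62.5% for calcineurin. For class IIa deacetylases and MEF2 factors it was 57.1%, for CREB relatives and cofactors 33.3% and for CREB targets 52.9%. These lists hold 7 to 17 tested genes each, so 1 gene moves a share by several percentage points. Of 13 tested genes of cAMP production (15 listed), 7 rose and 3 fell (median log2 fold change 0.17, against 0.0071 over all tested genes). The receptor gene Mc1r stood at 71.5, 84.8 and 82.1 CPM with DMSO and at 48.5, 50.0 and 51.8 CPM with iBRD9 (log2 fold change -0.67, edgeR adjusted p = 0.000183). The adenylyl cyclase genes Adcy3 (1.31, from 1.94 ± 0.705 to 4.79 ± 1.19 CPM) and Adcy1 (0.68) rose and Adcy2 (-0.51) fell. Gnas, the gene of the stimulatory G protein, chosen here after its values were seen, rose from 7.38 ± 0.492 to 10.7 ± 0.463 CPM (0.53, edgeR adjusted p = 0.00233). It overlaps antisense and alternative transcripts, so its low count is uncertain. In protein kinase A, 2 of 9 tested genes rose and 5 fell (median -0.20). A regulatory subunit gene, Prkar2b (0.60), and a catalytic subunit gene, Prkaca (0.37), rose. Pkib (-0.93) and Pkia (-0.48), which encode inhibitors of the kinase, fell. Another catalytic subunit gene, Prkacb (148 to 121 CPM, -0.29), and another regulatory subunit gene, Prkar1a (420 to 366 CPM, -0.20), also fell. Prkacb and Prkar1a were named after their values were seen.

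Most called genes of the phosphodiesterases that break down cAMP fell, 6 of 11 tested, and 2 rose (16 listed, median -0.40). Pde4d went from 26.5, 37.9 and 37.4 CPM with DMSO to 11.2, 10.3 and 9.16 CPM with iBRD9 (-1.73, edgeR adjusted p = 4.35e-05), and Pde10a fell from 7.62 ± 2.06 to 2.43 ± 0.104 CPM (-1.65). Each exceeded every member of the switch in the size of its change. Pde4a (0.41, edgeR adjusted p = 0.0345) rose but lost its call in 8 of 14 alternatives, with an adjusted p of up to 0.131, and in several of them 1 gene of the list was left called higher.

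Of the list of LKB1, its partners and AMPK-related kinases, 4 of 14 tested genes rose and 7 fell (17 listed, median -0.11). The AMPK-related kinases are relatives of the SIK kinases and not their activators. LKB1 acts in a complex with a STRAD pseudokinase and a scaffold of the MO25 family. The STRAD gene Strada rose from 20.3 ± 2.59 to 31.96 ± 1.79 CPM (0.65, edgeR adjusted p = 0.000762), and the MO25 gene Cab39l fell from 137 ± 5.73 to 58.0 ± 1.75 CPM (-1.25, edgeR adjusted p = 3.55e-06). The Cab39l libraries ran from 132 to 143 CPM with DMSO and from 56.2 to 59.7 CPM with iBRD9. The LKB1 gene Stk11 rose (0.28), while the other STRAD gene Stradb (-0.34) and the other MO25 gene Cab39 (246 to 157 CPM, -0.65) fell. Stk11, Stradb and Cab39 were named after their values were seen. Among the AMPK-related kinases, Snrk (0.47) rose and Brsk1 (-0.69) fell. The list had 2 risen genes without DMSO replicate 2, iBRD9 replicate 2 or iBRD9 replicate 3, and its median was 0.011 without DMSO replicate 1.

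Changes were smaller among genes of the proteins that hold and release CRTC. None of the 7 14-3-3 genes rose (0) and 3 fell (median -0.13), Ywhaq by 0.21 and Ywhaz by 0.17 on the log2 scale, and none of the 3 was called (0) with library size alone, without DMSO replicate 2 or 3, or without iBRD9 replicate 1 or 3. Among 8 tested genes of the phosphatase calcineurin and its regulators (10 listed), 3 rose and 2 fell (median -0.057). Cabin1 (0.31), an inhibitor gene, and the regulatory subunit gene Ppp3r1 (0.28) rose. The calcineurin inhibitor gene Rcan1 (-0.43) and a catalytic subunit gene, Ppp3cb (272 to 226 CPM, -0.26), fell. Another catalytic subunit gene, Ppp3ca, named after its values were seen, rose (202 to 233 CPM, 0.20, edgeR adjusted p = 0.0275). Without DMSO replicate 1, 4 genes of that list fell.

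Class IIa histone deacetylases are further substrates of the SIK kinases, and they hold back MEF2 factors. Of 7 tested genes, 2 rose and 2 fell (8 listed, median 0.076): Hdac7 (0.36) and Mef2c (0.62) rose, and Hdac4, at 104 ± 11.2 CPM with DMSO and 65.5 ± 3.58 CPM with iBRD9 (-0.66, edgeR adjusted p = 0.000365), and Mef2d (-0.23) fell. Without DMSO replicate 1, 4 genes rose, and without iBRD9 replicate 2 or 3, or with library size alone, 1 fell. Of 9 tested bZIP relatives and cofactors of CREB (11 listed), 2 rose, the acetyltransferase gene Crebbp (157 ± 7.01 to 208 ± 10.3 CPM, 0.40) and Crebzf (0.24), and 1 fell, Creb3l2 (373 ± 2.20 to 251 ± 14.4 CPM, -0.57), which encodes a membrane-bound factor. Without DMSO replicate 1 or 2, 2 of them fell, and with library size alone 4 rose.

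**Figure D4:**
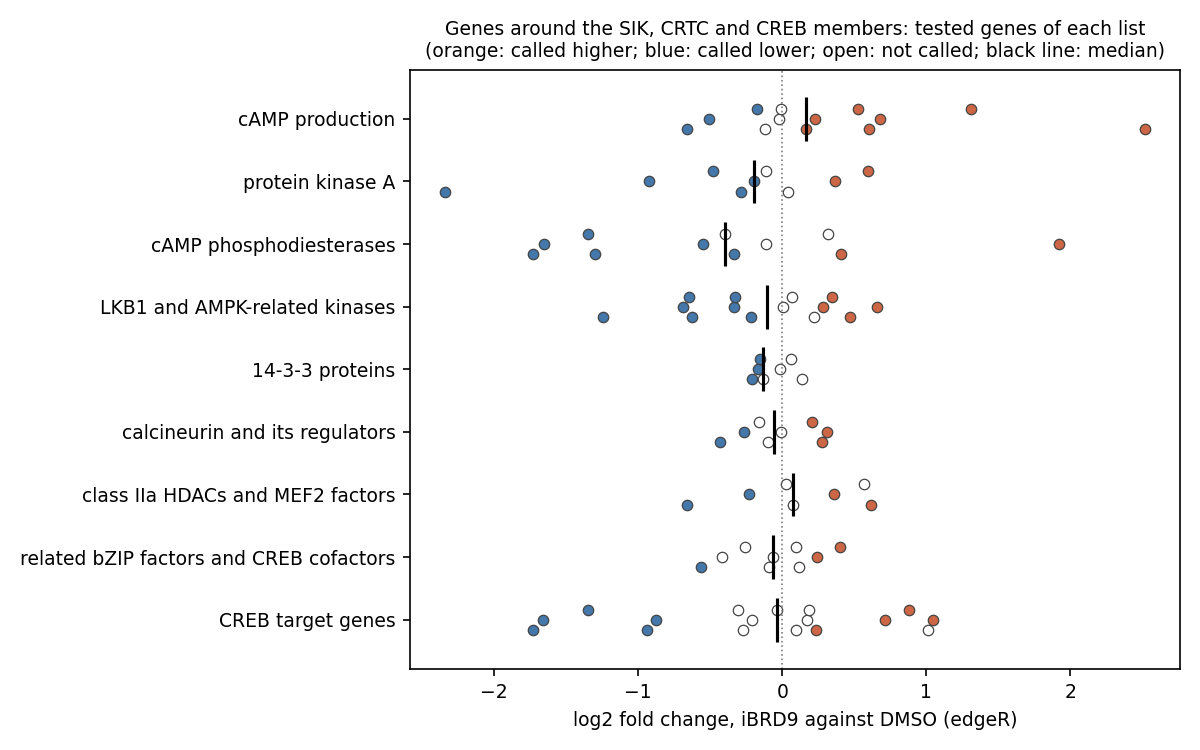
Log2 fold changes, iBRD9 against DMSO, of the tested genes in 9 lists around the switch, with called genes filled (orange higher, blue lower) and the median of each list as a black line. Genes with changes beyond 1 in either direction lie in the lists of cAMP production, protein kinase A, phosphodiesterases, LKB1 and AMPK-related kinases, and CREB targets. The 14-3-3 genes lie within 0.21 of 0.

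Downstream, CREB target genes did not move as a block. Of 17 tested (21 listed), 4 rose, 5 fell and 8 did not pass (median -0.038, and 0.12 without DMSO replicate 3). With library size alone 7 rose. The orphan nuclear receptor gene Nr4a3 stood at 699, 813 and 801 CPM with DMSO and at 256, 241 and 235 CPM with iBRD9 (-1.66, edgeR adjusted p = 2.91e-06), while its relatives Nr4a1 (46.0, 33.3 and 29.5 against 69.9, 71.1 and 84.0 CPM, 1.05) and Nr4a2 (0.88) rose. Pde4d, in this list as well, fell. Sik1 and Crem, CREB targets that are members of the switch, did not pass. Mitf, the target of the pathway in melanocytes, stood at 1219, 1356 and 1317 CPM with DMSO and at 1244, 1179 and 1195 CPM with iBRD9, and the groups overlapped through DMSO replicate 1. Its log2 fold change was -0.10 (SE 0.064, edgeR adjusted p = 0.184), 0.0019 with library size alone and -0.16 without DMSO replicate 1, where it was called (edgeR adjusted p = 0.00374, with up to 0.979 over its alternatives). Over all 93 tested genes of the 9 lists, each counted once, 26 rose and 32 fell, 62.4% called against 60.7% of all tested genes.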

How the data were processed

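The authors deposited a table of unnormalized read counts, 1 row per Ensembl gene and 1 column per sample. Per the submitters' processing notes, CASAVA 1.8.2 and Bowtie2 2.4.5 were used with build GRCm39. How reads were counted, with which annotation and whether by strand, is not given in the sources used here, so reads of a gene and its antisense partner cannot be separated. Columns were matched to samples by treatment and replicate number. Of 35275 IDs, 34490 matched a symbol. The reference at hand is of build GRCm38, so it served for names, exon lengths and promoter letters only.

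iBRD9 was compared with DMSO over all 6 libraries with edgeR 4.0.16 (R 4.3.3): filterByExpr with a minimum count of 10, TMM scaling, the robust quasi-likelihood F-test with treatment as the sole term, two-sided, and Benjamini-Hochberg adjustment over all tested genes. Genes with an adjusted p under 0.05 are called. Levels are TMM-scaled CPM, and SE is the log2 fold change divided by the root of F. Intervals come from limma-voom (limma 3.58.1). Correlations use log2 CPM with a prior count of 2. The procedure was tested on simulated counts with a far smaller part of the genes changed than was called here. That test therefore does not check the TMM scaling for these data. No libraries were duplicates (chi-square per degree of freedom from 1.93 to 37.5 within groups).

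The members and lists were chosen with earlier results of these data known. Genes named are the 9 members, Mitf, Mc1r, up to 2 higher and 2 lower called genes per list, the largest changes among those with a mean log2 CPM of 1 or more, and for the most changed member of each family the 3 genes most like it among those with a mean log2 CPM of 2 or more. A gene that this rule takes is not reported here. The 14 alternatives were DESeq2 size factors, library size alone, the DESeq2 1.42.0 Wald test, limma-voom, no filter, a filter at 1 CPM in 3 libraries, the replicate block, each library left out in turn, and a stricter adjusted p under 0.01. Figures were drawn with matplotlib 3.10.9.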

Additional observations from a re-analysis of the deposited data

How the results depend on the processing

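Of 126 fits of the 9 members over 14 alternatives, 103 kept direction and side of the threshold, 15 lost a call (Sik2, Crtc1 and Crtc2, 5 each) and 8 changed sign, all in members that were not called. Sik3, Crtc3 and Creb1 kept their call in all 14. The cause of the changes was not tested. The count of members called higher was 0 at an adjusted p under 0.01 and ran from 0 to 2 when single libraries were left out, and the count called lower ran from 3 to 4. The count of all called genes ran from 6865 to 10311 without single libraries, the highest without DMSO replicate 1, and that of called genes in the lists from 47 to 70. With library size alone Sik1 was at 0.091, Atf1 at 0.032 and Mitf at 0.0019, and the medians of 4 lists changed sign. These were LKB1 and AMPK-related kinases (0.00041), calcineurin (0.049), CREB relatives (0.041) and CREB targets (0.069). Under that scaling the medians of 4 more lists moved over 1.5 times, to 0.27 for cAMP production, -0.094 for protein kinase A, -0.025 for 14-3-3 proteins and 0.18 for deacetylases and MEF2 factors (0.21 with no filter). With no filter Crem was at -0.0033. The medians were then -0.013 for cAMP production, 0.061 for LKB1 and AMPK-related kinases and 0.023 for CREB targets. With the 1 CPM filter Sik1 was at 0.0074 and the median of CREB relatives at 0.037. Without single libraries Sik1 ran from -0.042 to 0.0010 and Crem from -0.11 to 0.096. The median of LKB1 and AMPK-related kinases ran from -0.11 to 0.011 and that of CREB targets from -0.12 to 0.12. The share differences ran from -11.1 to -9.62 points for Sik3, 6.18 to 7.29 for Sik2, 6.15 to 8.46 for Crtc1 and -9.38 to -5.03 for Crtc3. Of 32 other named genes, 27 kept direction and call in all 14. Deviations of same-numbered samples from their group means correlated weakly (r = 0.118, 0.0599 and 0.0248), and DMSO replicate 3 correlated best with iBRD9 replicate 2. Deviations within a group of 3 are tied to each other, so these values cannot decide whether the numbers pair the samples. With the replicate block 3920 genes were called higher and 4017 lower, 7937 in all, and 6 members were called. The precision of Crem rests on 168 to 268 reads per library, and the part of depth in its spread was not tested.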
